A study of Mus musculus with 16 samples.

Results

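CpG methylation was compared between cells at D4 of chemical reprogramming (2 libraries) and cells at D2 (2 libraries), the step that comes before the large loss of methylation in this time course. The cells were mouse embryonic fibroblasts (MEFs) from 129XOG2 embryos at embryonic day 13.5, used at passages 1 to 3. They were moved to reprogramming medium on the day after seeding. The medium was changed every 2 days, and from day 4 to day 8 it was renewed daily. Cells of D4 and D2 share this origin and treatment, and the labels call both a reprogramming intermediate. The sources used here do not state what the medium contained. These 4 libraries are part of a series of 16, and the labels do not say whether the replicates of a day came from separate cultures, so tests measure only the spread between these libraries, which may be technical. A CpG site (1 strand of a CpG) was kept when each of the 4 libraries listed it with at least 10 reads. This held for 1239857 of the 2365754 autosomal sites listed in any of them, or 52.4%. Tiles of 1 kb with at least 3 such sites numbered 119301. The median tile held 7 sites and 216 reads per library.

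Methylation of the cytosine in CpG is copied to new DNA strands by DNMT1 with its partner UHRF1, written de novo by DNMT3A and DNMT3B, and oxidised by the TET enzymes. In most mammalian cells CpG-poor DNA is highly methylated, while CpG-rich DNA at gene starts (CpG islands) is mostly free of methylation, and the flanks of such islands take intermediate levels. Reduced representation bisulfite sequencing (RRBS) reads fragments cut with MspI, which enriches for CpG-rich DNA, after bisulfite has turned unmethylated cytosines into bases read as thymine. An unmethylated cytosine that escapes this conversion is counted as methylated, so a level near 0 also carries the background of the assay. No gene annotation of the build of the deposited sites (GRCm39) was used here, so regions are given by position, and the labelled cell type was not checked against marker genes.

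The 4 libraries listed 1617992 to 1948312 sites with 46142451 to 61389086 reads in all and a median coverage of 20 to 23 reads. Over the tiles, Pearson r between replicates was 0.950 at D4 and 0.965 at D2. D4 replicate 1 stood apart in its mitochondrial DNA, which is described with the background below.

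The methylation level was slightly higher at D4. Mean methylation over the common autosomal sites was 50.4% and 50.3% in the D4 libraries, against 48.0% and 48.0% in the D2 libraries. The groups did not overlap, and the difference of 2.37 points ± 0.048 (SE) was many times the spread between replicates, which had an SD of 0.067 at D4 and 0.0091 at D2. With 2 libraries a day, a two-sided exact permutation test cannot go below 0.333. This is the p found here and, unless another is given, for each such test of all 4 libraries below. The size depended on the weighting. It was 1.73 points ± 0.032 over tiles and 1.21 points ± 0.21 when all reads were pooled. It was 4.42 points over all autosomal sites that each library listed, where the libraries do not hold the same sites.

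The shares of low and intermediate sites differed more than that of highly methylated sites. Sites under 20% methylation made up 33.9% ± 0.34 (SD, n = 2) of the common sites at D4 and 39.0% ± 0.35 at D2. Sites between 20% and 80% made up 30.7% ± 0.40 at D4 and 26.2% ± 0.53 at D2. Sites at 80% or more were close to each other, at 35.3% ± 0.064 at D4 and 34.8% ± 0.17 at D2. To set aside unequal coverage, the chance of finding no methylated read among 10 reads drawn from each site was computed. It averaged 18.5% and 18.8% in the D4 libraries and 24.3% and 24.5% in the D2 libraries, so fully unmethylated draws were rarer at D4. The chance of 10 methylated reads in 10 was 18.5% and 18.6% at D4, against 17.2% and 17.2% at D2.

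The background was measured on 9379 tiles (7.86%) that were under 15% in all 4 libraries. Their mean level was 6.31% and 6.23% in the D4 libraries, against 4.39% and 4.31% in the D2 libraries, a difference of 1.92 points ± 0.060 (exact permutation p = 0.333). Both D4 libraries lay above both D2 libraries. These tiles were chosen on the values compared, and with a limit of 5% in place of 15% the difference was 0.31 points. Of the tiles covered in all 16 libraries, 5083 were under 15% in the 12 libraries of other days, a choice that did not use D4 or D2. Those tiles were at 5.90% and 5.88% at D4 and at 3.65% and 3.53% at D2, a difference of 2.30 points ± 0.061. The other 109922 tiles, outside the background, averaged 61.9% and 62.0% at D4 and 60.2% and 60.2% at D2.

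**Figure D1:**
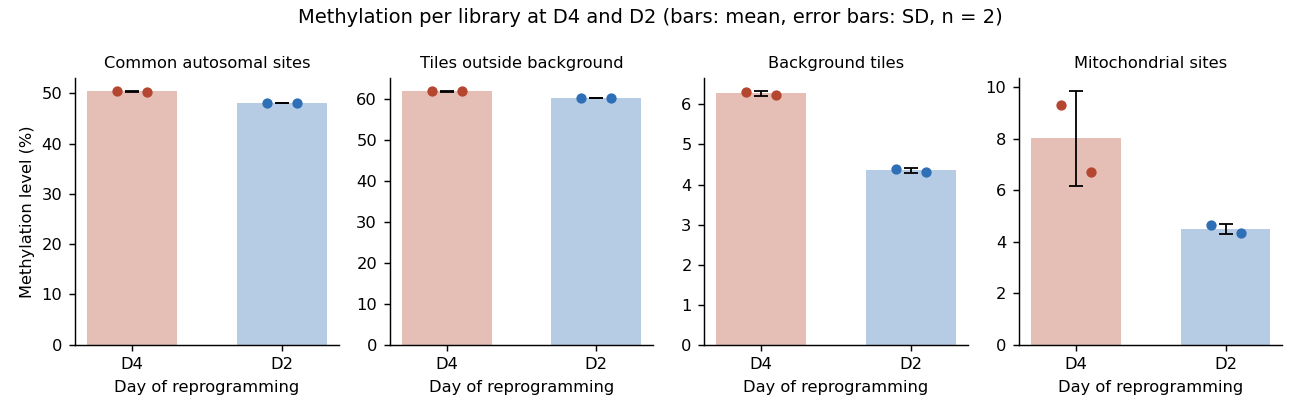
Methylation level in percent per library (points), with the mean (bar) and SD (error bar, n = 2), in D4 (left) and D2 (right) for the common autosomal sites, the tiles outside the background, the background tiles and the 15 mitochondrial sites. Each panel starts at 0 and has its own scale. Both D4 points lie above both D2 points in each panel, and the absolute gap is similar for background tiles (1.92 points) and the other tiles (1.71 points).

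The difference was then set against that of the background. With the background level of its own library subtracted, the level of the other tiles was 55.6 and 55.7 points in the D4 libraries, against 55.8 and 55.9 points in the D2 libraries. The difference was -0.21 points ± 0.094, so D4 was no longer higher (exact permutation p = 0.333). With background tiles under 5% the same difference was 1.43 points. Subtraction removes the same amount at each level, whereas unconverted cytosines would add to the unmethylated share alone. On the scale (level - b)/(1 - b), with b the background as a fraction, the other tiles stood at 59.3% and 59.5% at D4 and at 58.4% and 58.4% at D2. That difference was 0.97 points ± 0.064, so the sign depended on the form of the correction and on the limit for background tiles. The sign also depended on CpG number. Of the background tiles, 4256 of 9379 held 20 or more CpGs, against 6586 of the 109922 other tiles. With background tiles of equal CpG number, subtraction left 0.027 to 3.29 points across the classes of CpG number, as given below. Conversion rates are not stated in the labels, and the part of incomplete conversion in the difference was not tested.

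Mitochondrial DNA, which is generally held to carry little CpG methylation, gave another reading of the background. The 15 mitochondrial sites common to the 4 libraries were at 9.31% and 6.71% at D4, against 4.63% and 4.35% at D2, over 13474 to 37646 reads per library. Both D4 libraries were above both D2 libraries, but the replicates at D4 differed by more than those at D2. In D4 replicate 1 a further 415 mitochondrial sites were listed, at 97.3% over 11939 reads. In the other 3 libraries between 3 and 15 further sites were listed, at 45.0% in D2 replicate 1 and at 0% in D4 replicate 2 and D2 replicate 2. In the background tiles D4 replicate 1 was at 6.31% and D4 replicate 2 at 6.23%, and without D4 replicate 1 the background difference was 1.93 points.

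The difference between D4 and D2 varied with the starting level. Tiles were sorted by their mean level in the D0 libraries, the MEFs before reprogramming, which take no part in the comparison. In tiles under 5% at D0, D4 lay 2.99 points ± 0.087 above D2. The gap was widest in tiles at 5 to 20%, which stood at 13.2% and 12.7% at D4 and at 8.26% and 7.97% at D2, a difference of 4.85 points ± 0.27. It was 3.42 points ± 0.16 in tiles at 20 to 40% and 1.44 points ± 0.059 in those at 40 to 60%. Above that it was 1.11 points ± 0.091 at 60 to 80%, 0.68 points ± 0.14 at 80 to 90% and 0.62 points ± 0.11 at 90 to 100%. In each of the 7 classes both D4 libraries were above both D2 libraries. Relative to the unmethylated share at D2, the difference came to 3.10% under 5%, 5.28% at 5 to 20%, 4.67% at 20 to 40% and 2.80% at 40 to 60%. It was 3.42%, 3.73% and 6.68% in the classes from 60% upwards, so the difference was not a constant share of the unmethylated reads.

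CpG-rich tiles differed most. The number of distinct CpGs listed in any library was used as a measure of CpG density. Tiles with 20 or more CpGs were at 28.0% and 27.7% at D4, against 23.6% and 23.4% at D2, a difference of 4.39 points ± 0.18 over 10842 tiles. The difference was 2.16 points ± 0.076 in tiles with 10 to 19 CpGs, 1.47 points ± 0.066 with 5 to 9 and 1.06 points ± 0.081 with 1 to 4. Because CpG-rich tiles also started lower, number and level were crossed. Among tiles at 20 to 40% at D0, the 1016 tiles with 20 or more CpGs stood at 27.6% and 26.8% at D4 and at 20.1% and 19.8% at D2, a difference of 7.26 points ± 0.42. In the same level class, the 2745 tiles with 1 to 4 CpGs differed by 1.504 points ± 0.46. Tiles with 20 or more CpGs also differed more than those with 1 to 4 at 5 to 20% (5.49 points ± 0.37 with 20 or more CpGs, 2.92 points ± 0.55 with 1 to 4) and at 40 to 60% (3.92 points ± 0.35 and 0.985 points ± 0.15). At 80 to 90% the values were 0.84 points ± 0.15 and 0.43 points ± 0.085. The order by CpG number did not hold at both ends. Tiles under 5% at D0 differed by 2.68, 2.83, 2.67 and 3.29 points from the fewest to the most CpGs, and tiles at 90 to 100% by 0.45, 0.69, 0.75 and 0.54 points.

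**Figure D2:**
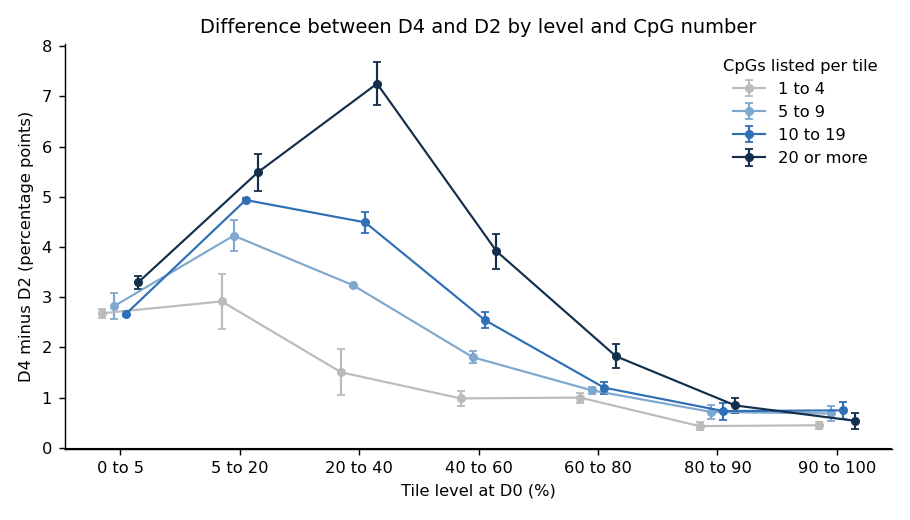
Difference in tile level between D4 and D2 in percentage points (points, with SE as error bars), by the level of the tile at D0 in percent on the x axis and by the number of CpGs listed in the tile (line colour). The largest difference, 7.26 points, is in tiles with 20 or more CpGs at 20 to 40%, and the 4 lines meet near 1 point or below at 80% and above.

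The background also differed with CpG number, so each class was set against its own background. Background tiles with 20 or more CpGs were at 6.53% and 6.37% at D4 and at 4.12% and 3.99% at D2, a difference of 2.39 points ± 0.10. Background tiles with 1 to 4 CpGs differed by 0.86 points ± 0.19. After subtraction, the other tiles with 20 or more CpGs stood at 35.4 and 35.2 points at D4 and at 32.1 and 31.9 points at D2, which left a difference of 3.29 points ± 0.13 (exact permutation p = 0.333). For 10 to 19 CpGs 0.46 points ± 0.14 was left and for 1 to 4 CpGs 0.21 points ± 0.13. For 5 to 9 CpGs 0.027 points ± 0.15 was left, and the libraries of D4 (60.1 and 60.1 points) and D2 (59.9 and 60.2 points) overlapped (exact permutation p = 1). On the scaled form, with the background of equal CpG number, the difference was 4.37 points ± 0.18 with 20 or more CpGs, 1.598 points ± 0.12 with 10 to 19, 1.0003 points ± 0.10 with 5 to 9 and 0.744 points ± 0.040 with 1 to 4. Both forms gave the largest difference to tiles with 20 or more CpGs, and they differed in what was left for the others. In each class the background tiles were chosen on the D4 and D2 values compared. A tile above the background limit in a D4 library was thus counted among the other tiles, which can enlarge the difference left. No background chosen without D4 and D2 was split by CpG number, so the part of this choice was not tested.

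The chromosomes behaved alike. On each of the 19 autosomes both D4 libraries lay above both D2 libraries in the mean over sites. The difference went from 2.17 points ± 0.071 on chromosome 18 to 2.60 points ± 0.038 on chromosome 7. The background difference per chromosome lay between 1.74 and 2.15 points. The X chromosome, which is outside the main comparison, was at 59.4% and 59.6% at D4 and at 58.4% and 58.3% at D2.

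Single tiles were tested with edgeR on methylated and unmethylated reads, and a tile was called at a Benjamini-Hochberg adjusted p under 0.05 and a difference of at least 10 points. Of 119301 tiles, 0 were called higher (0%) and 0 lower (0%), with a lowest edgeR adjusted p of 0.261. At an unadjusted edgeR p under 0.05 there were 9769 tiles (8.19%), of which 7739 (6.49%) were higher and 2030 (1.7%) lower at D4. The quasi-binomial model also called 0 tiles, with 10989 at an unadjusted p under 0.05. A fit of all 16 libraries, on the sites they share, called 1 tile higher and 0 lower.

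Differences of 10 points were more often upward than downward. Tiles with a mean difference of at least 10 points numbered 9084 higher (7.61%) and 2866 lower (2.4%). Both D4 libraries lay above both D2 libraries in 27.1% of tiles and below both in 12%. In tiles with 20 or more CpGs these shares were 41.8% and 5.60%, and in those with 1 to 4 CpGs they were 23.0% and 13.9%. Between replicates of a day the differences were balanced. D4 replicate 1 was at least 10 points above D4 replicate 2 in 8.02% of tiles and below it in 8.08%. D4 replicate 1 was that far above D2 replicate 1 in 12.2% of tiles and below it in 5.76%.

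Whether a tile's difference recurred was read in libraries that had not chosen it. The 14581 tiles at least 10 points higher at D4 in replicate 1 were at 48.5% at D4 and 44.3% at D2 in replicate 2, a difference of 4.29 points. The 13514 tiles chosen in replicate 2 differed by 4.36 points in replicate 1. All tiles differed by 1.76 and 1.70 points in the same libraries, so the higher tiles carried over in part. The 6868 tiles at least 10 points lower in replicate 1 differed by -0.047 points in replicate 2, and 50.1% of them were lower at D4 there, against 39.9% of all tiles. The 6008 tiles chosen in replicate 2 differed by -0.35 points in replicate 1, where 50.3% of them were lower, against 40.9% of all tiles. Of the higher tiles, 67.1% and 66.2% kept their direction, against 59.8% and 58.7% of all tiles. Tiles of both directions thus lay on their own side of the mean of all tiles, and the lower ones were near 0.

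The 4451 tiles (3.73%) with an unadjusted edgeR p under 0.05 and at least 10 points higher at D4 had a median level of 42.4% at D4 and 23.8% at D2, and 24.2% of them held 20 or more CpGs, against 9.09% of all tiles. The 1281 tiles (1.07%) that were lower had a median level of 43.1% at D4 and 59.8% at D2, and 3.43% of them held 20 or more CpGs. These levels come from the libraries that chose the tiles and are a description. A tile under 10% at D2 could enter the higher set only, and 42.8% of the higher tiles and 1.72% of the lower tiles were under 15% at D2. The other days were not used in the choice. On the sites common to all 16 libraries, 2994 of the higher tiles were at 34.0% ± 0.076 (SD, n = 2) at D0, 27.1% ± 0.18 at D2, 41.7% ± 0.16 at D4 and 30.0% ± 0.40 at D6. In 959 of the lower tiles the level was 58.7% ± 0.087 at D0, 56.5% ± 0.20 at D2, 40.9% ± 0.11 at D4 and 35.8% ± 0.66 at D6. All 92383 tiles on these sites went 57.8% ± 0.12, 55.1% ± 0.0035, 56.4% ± 0.092 and 47.8% ± 0.38 over the same days. In iPSCs the lower tiles were at 61.5% ± 0.024. The choice of the tiles favours a D4 level away from that of the other days in both sets, so steps to and from D4 are given as values only.

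**Figure D3:**
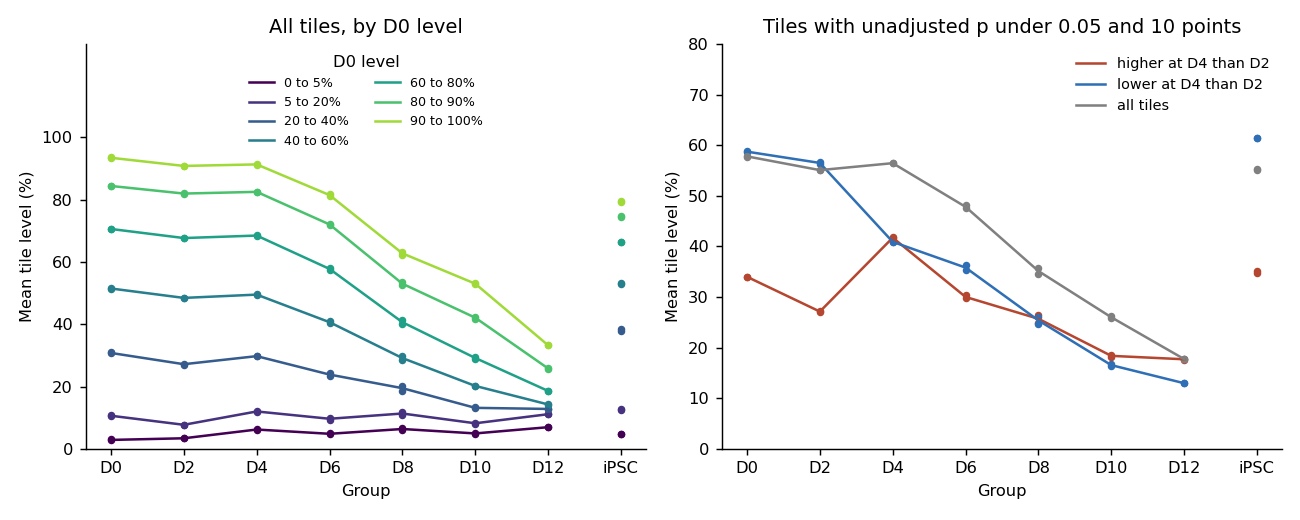
Mean tile level in percent over the sites common to all 16 libraries, from D0 to D12 (lines through group means) and in iPSCs, with 1 point per library. Left, tiles by their level at D0. Right, tiles with an unadjusted edgeR p under 0.05 and a difference of at least 10 points between D4 and D2, with all tiles in grey. Classes above 40% show a small step between D2 and D4 and a much lower level at D6, while tiles at 5 to 20% lie higher at D4 (12.1% and 11.8%) than at D2 (7.80% and 7.61%).

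In points, low tiles moved less between D4 and D6 than highly methylated ones. Low tiles have less room to fall, and the change relative to level was not compared. Tiles at 5 to 20% at D0 were at 10.6% ± 0.13 at D0, 7.70% ± 0.13 at D2, 12.1% and 11.8% at D4 and 9.64% ± 0.34 at D6. Tiles at 60 to 80% were at 70.6% ± 0.12 at D0, 67.7% ± 0.055 at D2, 68.5% ± 0.17 at D4 and 57.8% ± 0.40 at D6. The highly methylated class at D4 thus stayed below its D0 level, and the low class was above it. CpG-rich tiles at 20 to 40% at D0 were at 27.9% ± 0.51 at D0, 21.2% ± 0.080 at D2, 27.2% ± 0.49 at D4 and 21.6% and 22.4% at D6. The D0 values of these classes were used to form them. The tiles under 15% in the 12 other libraries were at 4.76% ± 0.015 at D0, 3.59% ± 0.085 at D2, 5.89% ± 0.015 at D4 and 4.31% ± 0.30 at D6, where D4 and D2 are the only groups that the choice left free to exceed 15%.

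The 10 higher and the 10 lower tiles with the lowest unadjusted edgeR p, a difference of at least 10 points and at least 100 reads in each library are named below. None was called, and their adjusted p lay between 0.261 and 0.266 (edgeR). The higher tiles had nearly no methylation at D2, with means of 0.38% to 1.15%, and means of 13.8% to 29.1% at D4. Their number of CpGs was 11 to 56 with a median of 19, against a median of 6 over all tiles. The limit of 100 reads was not applied to all tiles, so these medians are not matched for depth. The levels come from the libraries that ranked the tiles and are a description.

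On chromosome 3 (107603001 to 107604000) a tile of 51 sites and 56 CpGs was at 27.3% and 25.1% at D4, against 0.63% and 0.51% at D2, over 1180 to 1712 reads per library. It differed by 25.6 points ± 1.1 (unadjusted p = 9.5e-06, adjusted p = 0.261, edgeR). The tile was at 1.93% ± 0.47 at D0 and 6.02% ± 3.9 at D6, so the D4 libraries alone were above 20%. Over the 12 libraries of other days it reached 17.6%. On chromosome 5 (129864001 to 129865000) a tile of 14 sites was at 24.4% and 26.5% at D4 and at 0.59% and 0.85% at D2. It was at 11.2% ± 5.3 at D0, and 5 of the 12 other libraries were at 10% or more. On chromosome 9 (124196001 to 124197000) a tile of 27 sites was at 26.5% and 31.8% at D4 and at 1.06% and 1.25% at D2, the largest difference among the named tiles of this direction, at 28.0 points ± 2.7. At D0 it was at 8.81% ± 10.4, so the D0 replicates lay far apart. Another tile on chromosome 9 (71122001 to 71123000) was at 16.8% and 16.6% at D4, against 0.89% and 0.93% at D2. On the sites common to all 16 libraries its D4 mean was 10.1%, and the 12 libraries of other days reached 17.5%. There it was at 7.58% ± 8.4 at D0 and 12.2% ± 7.5 at D12, so replicates of these days lay far apart.

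The other higher tiles were 79575001 to 79576000 and 37961001 to 37962000 on chromosome 15, 105368001 to 105369000 on chromosome 8, and 32693001 to 32694000 on chromosome 18. Further such tiles were 15901001 to 15902000 on chromosome 19 and 178015001 to 178016000 on chromosome 1. Their differences ran from 13.1 to 20.3 points. These tiles were chosen for a high D4 and a low D2 level, so the place of the other days relative to D4 and D2 is no separate result. The tile called in the 16-library fit lay on chromosome 5 (107874001 to 107875000). It was at 22.6% and 16.7% at D4, against 1.83% and 2.10% at D2, and in that fit the difference was 18.4 points (adjusted p = 0.00276, edgeR). It was at 6.47% ± 0.96 at D0 and 0.76% ± 0.34 at D6, and none of the 12 other libraries reached 10%. It was chosen after its values were seen.

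The named lower tiles held 3 to 54 CpGs with a median of 7, and their means at D2 were 13.9% to 79.2%. On chromosome 2 (45429001 to 45430000) a tile of 22 sites was at 40.4% and 38.9% at D4, against 68.1% and 68.3% at D2, over 956 to 1440 reads per library. The difference was -28.6 points ± 0.77, with an unadjusted p of 0.000604 and an adjusted p of 0.266 (edgeR). The tile was chosen by its p, so the size of its gap beside the replicate spread is no separate result. It was at 73.0% ± 0.99 at D0, 34.5% ± 0.33 at D6, 19.1% ± 5.8 at D12 and 89.6% ± 1.5 in iPSCs. Another tile on chromosome 2 (21527001 to 21528000) was at 51.3% and 51.6% at D4 and at 79.8% and 78.6% at D2. It was at 85.1% ± 0.77 at D0, 26.4% ± 2.0 at D6, 3.44% ± 4.0 at D12 and 88.5% ± 0.58 in iPSCs.

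On chromosome 6 (76605001 to 76606000) a tile was at 44.2% and 39.0% at D4, against 79.1% and 77.9% at D2, the largest difference among the lower tiles, at -36.9 points ± 2.7. On chromosome 3 (8100001 to 8101000) a tile was at 15.8% and 18.0% at D4 and at 49.5% and 53.6% at D2. On chromosome 8 (62105001 to 62106000) a tile of 4 sites was at 4.29% and 4.18% at D4 and at 36.1% and 31.1% at D2. It was at 64.2% ± 4.7 at D0 and 72.1% ± 2.4 in iPSCs, so the D2 level already lay below that of D0. The tiles on chromosome 9 (35244001 to 35245000 and 80696001 to 80697000) and chromosome 1 (135710001 to 135711000) differed by -32.3, -15.7 and -31.7 points. The remaining 2 tiles, on chromosome 6 (148797001 to 148798000) and chromosome 7 (44465001 to 44466000), were CpG-rich and differed by -13.1 and -14.3 points. The chromosome 6 tile was at 0.77% and 0.73% at D4 and at 12.8% and 14.9% at D2. At D6 it was at 11.5% ± 6.7, so the replicates of that day lay far apart. It was chosen for a D4 level below that of D2, so the D6 level is given as a value only.

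**Figure D4:**
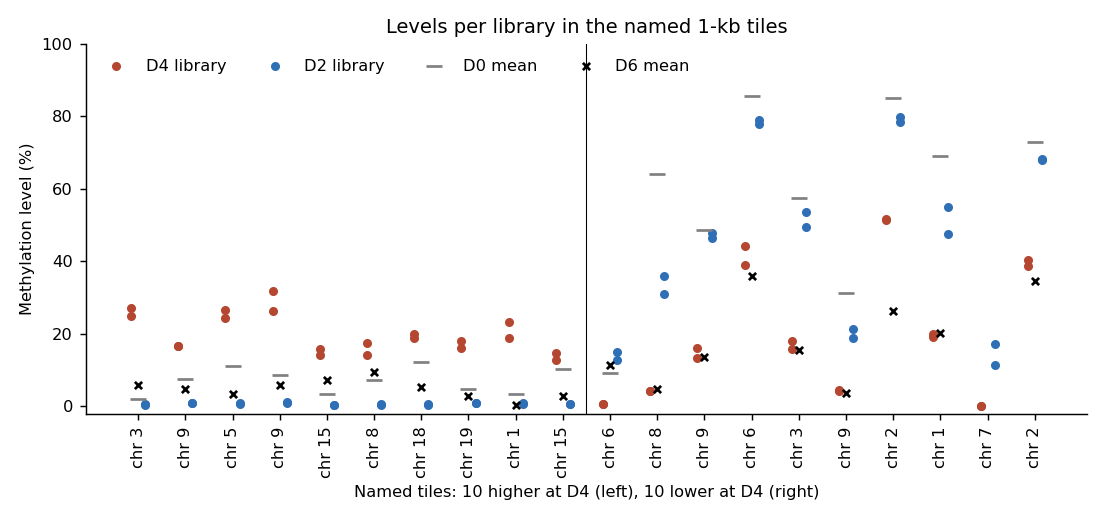
Methylation level in percent in each D4 library (red, left of centre) and each D2 library (blue, right of centre) for the 10 named tiles that were higher at D4 (left side) and the 10 that were lower (right side), with the D0 mean (grey bar) and D6 mean (cross) where all 16 libraries cover the tile. The D2 points of the left side lie near 0, at means of 0.38% to 1.15%, while on the right side the D2 means spread from 13.9% to 79.2%.

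Larger windows reduce counting error, and windows of 1 Mb were therefore tested after the tiles. These 2407 windows held a median of 380 sites and 13899 reads per library. The median difference was 1.04 points, and 5% of windows were below -1.57 points and 5% above 3.93 points. At an edgeR adjusted p under 0.05 with no minimum difference, 118 windows were higher at D4 (4.9%) and 4 were lower (0.166%). The higher windows lay on 19 chromosomes and differed by 2.15 to 8.97 points. They held a median of 621 sites, against 380 over all windows, and averaged 45.9% and 46.1% at D4 and 41.2% and 41.6% at D2. A median of 22.8% of their sites lay in background tiles, against 12.4% over all windows. On the sites common to all 16 libraries, they were at 47.0% at D0, 41.9% at D2, 46.1% at D4 and 36.8% at D6.

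The count changed with the background correction and with the D2 libraries. With reads corrected for the background of their library, 5 windows stayed called as higher (0.208%) and 2 were called lower (0.0831%), 1 of them among the 4. The median corrected difference of the 118 windows was 3.58 points, but they were chosen for a high difference on the same reads. Over all windows the median corrected difference was 0.16 points. The correction used a single rate per library, whatever the CpG number of a window. No window was called without D2 replicate 1 or without D2 replicate 2 (lowest edgeR adjusted p = 0.0714 and 0.0585, with 342 and 404 windows at an unadjusted p under 0.05). With the replicate number as a block, 26 windows were higher and 1 lower.

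The 5 windows that stayed called as higher lay on chromosomes 8, 9, 11 and 4. On chromosome 8 (72000001 to 73000000) the window was at 25.1% and 25.4% at D4, against 20.2% and 20.0% at D2, over 989 sites. The difference was 5.15 points ± 0.16 as deposited (adjusted p = 0.00046) and 3.78 points corrected (adjusted p = 0.0121, edgeR). On chromosome 11 (16000001 to 17000000) the window was at 40.5% and 38.5% at D4 and at 30.5% and 30.5% at D2, with a corrected difference of 8.08 points (adjusted p = 0.0121, edgeR). The others, on chromosome 9 (3000001 to 4000000 and 35000001 to 36000000) and chromosome 4 (47000001 to 48000000), had corrected differences of 5.74, 6.25 and 5.42 points. A window on chromosome 6 (3000001 to 4000000) was lower, at 47.1% and 48.2% at D4 and at 53.2% and 52.4% at D2. It held 412 sites with 106910 to 139566 reads per library. Its difference was -5.17 points ± 0.65 as deposited (adjusted p = 0.00046) and -6.53 points corrected (adjusted p = 0.00014, edgeR). Windows are weighted by reads. With sites over 500 reads left out, 65 windows were higher and 0 lower, so the chromosome 6 window was no longer called lower.

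Windows of 100 kb gave 5 calls higher at D4 (0.0326%) and 0 lower (0%) among 15345. The first, on chromosome 13 (86100001 to 86200000), was at 16.3% and 18.6% at D4, against 3.56% and 4.22% at D2, a difference of 13.6 points ± 1.2 (adjusted p = 0.0466, edgeR). The window on chromosome 6 (86300001 to 86400000) differed by 9.02 points, and that on chromosome 17 (8300001 to 8400000) by 10.2 points. The window on chromosome 7 (100000001 to 100100000) differed by 11.3 points and that on chromosome 11 (60400001 to 60500000) by 9.38 points. Each of the 5 windows had a D2 mean under 6%.

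**Figure D5:**
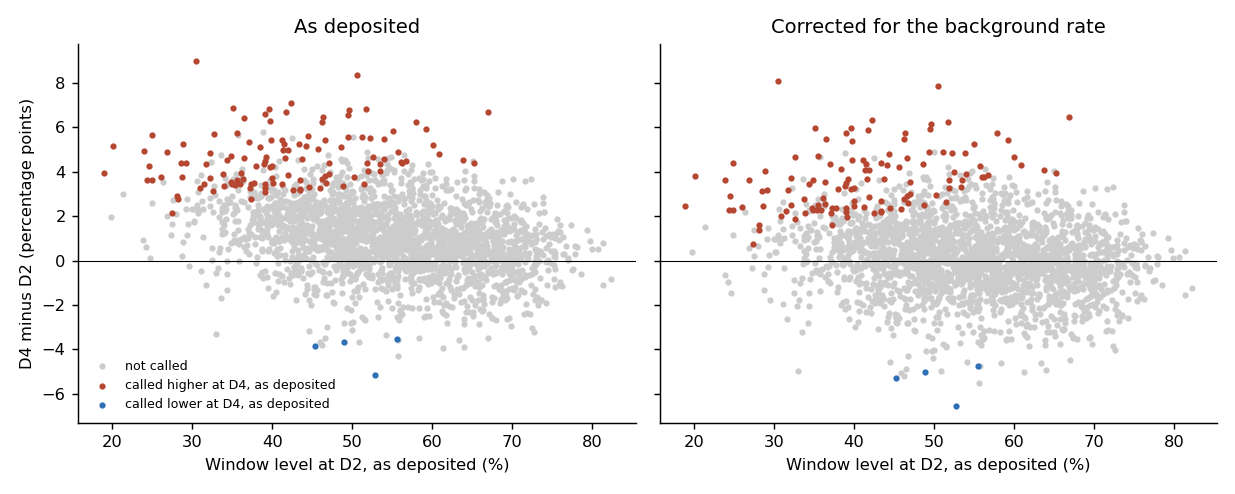
Difference between D4 and D2 in percentage points for each 1-Mb window against its level at D2 in percent, as deposited (left) and after correction for the background rate of each library (right). Red and blue points are the 118 windows called higher and the 4 called lower at D4 on the values as deposited. The median of all windows is 1.04 points on the left and 0.16 points on the right.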

How the data were processed

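Libraries were cut with MspI, bisulfite converted, amplified for 15 PCR cycles and read over 150 bp, per the labels' protocols. fastp 0.20.1, Bismark 0.23.0, Bowtie2 and methylKit with build GRCm39 are named in the submitters' processing notes. Their settings, duplicate handling and conversion rates are not stated there. Each deposited table holds coverage (a read count) and the percent of C and of T per site, per the file headers. Methylated reads were recovered as coverage times percent and came out whole, within the rounding of the percent to 2 decimals, at all but 0 sites.

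Tile levels are methylated reads over all reads. The main test was edgeR 4.0.16 under R 4.3.3 (its quasi-likelihood test), fitted to the pairs of methylated and unmethylated read counts from the 4 libraries, with library effects, a common dispersion and Benjamini-Hochberg adjustment over all tiles. The test was tried on simulated data. Single values were compared by exact permutation tests. The background rate b is the mean of tiles under 15% in all 4 libraries. A quasi-binomial model (limma 3.58.1), other coverage limits, tile sizes, fits and a replicate block were alternatives. Named tiles are the 10 per direction with the lowest unadjusted p, at least 10 points and 100 reads per library. Windows, and the scaled background form by CpG number, were added after the tile results were seen. Members, classes and tests were chosen with earlier results of these data known. Reads carry no molecular identifiers, so error from counting alone is understated. Promoters and gene lists were not analysed, since the gene table at hand belongs to another build. No number in the labels ties replicates across days, and the deviations of same-numbered replicates had a correlation of 0.0047 over tiles.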

Additional observations from a re-analysis of the deposited data

Results flagged for a closer look

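Mitochondrial DNA lies outside the autosomal comparison. D4 replicate 1 listed 430 mitochondrial sites, against 27 in D4 replicate 2, 30 and 18 in the D2 libraries and 22 to 175 in the 12 other libraries. Over all its listed mitochondrial sites, D4 replicate 1 was at 30.5% methylation, against 6.67% in D4 replicate 2, 5.16% and 4.35% in the D2 libraries and 4.35% to 11.4% in the 12 others. In D4 replicate 1, 371 of these sites were at 90% or more. D2 replicate 1 held 6 such sites, and D4 replicate 2 and D2 replicate 2 held 0. Among the libraries of other days, D6 replicate 2 held 88 and D10 replicate 2 held 51. D0 replicate 2 held 39, D12 replicate 2 held 36, and the rest held 0 to 7. The D4 replicate 1 signal was noted because it lay above the D2 libraries in data that the main comparison does not use. Its part in the autosomal difference was not tested, and without D4 replicate 1 the mean difference over autosomal sites was 2.32 points.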

How the results depend on the processing

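The difference in mean level over common sites kept its sign under each alternative tried, between 1.21 points (reads pooled) and 4.42 points (all sites listed), with 1.56 points at 20 reads per site, 1.505 points corrected for the background and 2.79 points with strands merged. Leaving out each library gave 2.32 to 2.42 points. The background difference stayed above 0, at 0.31 points with tiles under 5% and 3.51 points ± 1.3 on mitochondrial sites. On those sites the D4 libraries lay far apart, at 9.31% and 6.71%. For the background tiles, leaving out each library gave 1.86 to 2.00 points. The level above background was -0.21 points in the main form. Under the alternatives that kept its sign it was -1.81 points (mitochondrial sites) to -0.14 points. It turned to 1.43 points with background tiles under 5% and to 0.97 points on the scaled form. With background tiles of equal CpG number it was 0.027 to 3.29 points across the classes of CpG number. For the main form, leaving out each library gave -0.34 to -0.14 points. The counts of called tiles were 0 in both directions under each alternative but the 16-library fit, which called 1 tile higher, and 4467 to 10989 tiles had an unadjusted p under 0.05. The 20 named tiles kept their direction under each alternative that could be computed, with adjusted p from 0.0686 to 1 (edgeR or the quasi-binomial model). They were chosen for their difference in these libraries, and the alternatives drew on the same libraries, so the kept direction is no separate result.

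For 1-Mb windows, 118 higher and 4 lower at first, the counts were 94 and 1 without background tiles, 65 and 0 without sites over 500 reads, 31 and 9 at 20 reads per site, and 5 and 2 after background correction. The trended dispersion gave 129 and 5 and the quasi-binomial model 107 and 4. Leaving out each library gave 0 to 147 higher and 0 to 4 lower, namely 0 and 0 without D2 replicate 1 or D2 replicate 2 and 59 higher without D4 replicate 2. The cause was not tested. With the replicate block, 26 windows were higher and 1 lower, and 0 tiles were called. The replicate numbers do not pair the samples by any label, so this says nothing on the size of the effect. With 2 libraries a day no single value can pass an exact test. Tiles of 5 kb were not computed for the named tiles.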
